A study of Mus musculus with 12 samples.

Results

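Cd79a, Cd79b, Ms4a1, Pax5 and Ly6d are 5 marker genes of B cells, and the open chromatin around them was mapped in mouse aortic endothelial cells (MAECs) from offspring of 4 diet groups. They are 5 of the 21631 protein-coding genes in the RefSeq table of GRCm38.p6 for chromosomes 1 to 19 and X. A peak belonged to a gene when that gene's span was the nearest protein-coding one within 100 kb. By this rule the 5 genes held 11 of the 48003 regions that the 4 peak lists gave once overlapping peaks were joined. The genes were chosen by the presence of their peaks in these lists, so the presence, place and strength of those peaks are described here and not tested.

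The assay was ATAC-seq, which tags open DNA with a transposase that inserts sequencing adapters. The groups were WDM-WDO, CDM-WDO, WDM-CDO and CDM-CDO, with 2 ATAC-seq samples each. M was read as the diet of the mothers and O as that of the offspring. CD and WD are the labels' own abbreviations, and the title of the series names a high-fat diet of the mothers. For both WDO groups the series' design text states a renewed period on WD, of 4 weeks. Strain, sex, age and the way the cells were sorted are not given in the sources used here. Each group had 1 peak list, so nothing separates the spread between samples from a difference between diets, and no difference carries a p-value. Peak names in the lists carry the tag 12w in both WDO groups and 08w in both CDO groups. The diet of the offspring and whatever this tag marks therefore cannot be told apart.

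B cells recognise antigen through a surface immunoglobulin that signals through a pair of partner proteins. Cd79a and Cd79b encode this pair, Ig-alpha and Ig-beta. Ms4a1 encodes the surface protein CD20, Pax5 the transcription factor that holds cells to the B lineage, and Ly6d a small surface protein used to mark B lineage progenitors. None of the 5 is a typical gene of endothelium. In bulk chromatin, fewer cells of a type and less open chromatin per cell cannot be told apart. Several strong peaks of both CDO lists described here lay near the transcript end or over the constant region of genes known for abundant transcripts. They were those of Cd79b, Ly6d, Ms4a1 and the immunoglobulin constant genes. Actb also had a strong gene-end peak in both CDO lists, but which end carried it is not given here. Whether reads of cDNA from such transcripts entered these peaks was not tested, so a strong peak of a CDO list is given as piled-up reads and not as shown open chromatin.

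The promoter table gave sequences for 2 of the 5 genes. They are shown because the WDM-WDO list had a peak across the start of Cd79a, whereas no list had one at the start of Pax5. Each runs 5′ to 3′ from 250 bases before to 50 after the RefSeq start in GRCm38.p6, at chr7:24897247-24897546 on the plus strand for Cd79a and chr4:44710645-44710944 on the minus strand for Pax5. Capitals mark motif matches on either strand.
Cd79a: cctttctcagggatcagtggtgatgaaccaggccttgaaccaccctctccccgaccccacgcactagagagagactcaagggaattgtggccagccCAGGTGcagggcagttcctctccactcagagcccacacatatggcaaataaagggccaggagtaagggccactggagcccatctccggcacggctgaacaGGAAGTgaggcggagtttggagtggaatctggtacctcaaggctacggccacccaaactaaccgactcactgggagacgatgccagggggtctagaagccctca
Pax5: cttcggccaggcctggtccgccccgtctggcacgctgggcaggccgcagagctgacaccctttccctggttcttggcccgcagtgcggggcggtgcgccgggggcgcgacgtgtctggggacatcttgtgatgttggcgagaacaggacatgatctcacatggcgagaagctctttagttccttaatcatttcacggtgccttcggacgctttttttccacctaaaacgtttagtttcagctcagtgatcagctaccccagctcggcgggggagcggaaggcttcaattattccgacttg

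The motifs searched were GGAAGT (core of ETS factor sites), CAGGTG (an E-box), CCCNNGGG (EBF half-sites), ATTTGCAT (the octamer) and TGANTCA (AP-1). They do not overlap in the Cd79a window, where the E-box began 154 bases and the ETS core 54 bases before the start. The other 3 motifs had no match there, and none of the 5 matched in the Pax5 window. Of 21045 promoters of this length, 24.97% held the ETS core, 19.9% the E-box, 15.8% the EBF half-sites, 1.68% the octamer and 7.04% the AP-1 motif. The WDM-WDO peak covered 201 of the 300 Cd79a bases, with all 6 bases of the ETS core and 3 of the 6 of the E-box. A match describes letters and is not a shown binding site, and a missing match to such a fixed pattern does not show that a site is absent.

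The lists of the 2 offspring diets shared no region near the 5 genes, and 62.2% of all 48003 regions were likewise in lists of 1 offspring diet only. Of the 11 regions, 5 were in WDM-WDO alone, 1 was in both WDO lists and in neither CDO list, 3 were in both CDO lists and in neither WDO list, and 2 were in CDM-CDO alone. Of all regions, 17.7%, 1.49%, 5.79% and 9.21% had these 4 patterns, in the same order. A peak was assigned to 3 of the 5 genes in WDM-WDO, 1 in CDM-WDO, 3 in WDM-CDO and 4 in CDM-CDO, where 62.6%, 54.9%, 66.2% and 60.7% of all protein-coding genes had one. The members' counts lay within 2 genes of what such shares give for 5 genes, so the number of genes called says little about them. The lists differed in the place and the strength of the peaks. The median −log10 q, the authors' measure of a peak's significance, was 3.84 over 6 member peaks in WDM-WDO and 1.503 for the single one in CDM-WDO, against 7.77 and 5.89 over all peaks of those lists. It was 48.0 over 3 peaks in WDM-CDO and 22.0 over 5 in CDM-CDO, against 8.21 and 8.35 over all peaks.

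**Figure D1:**
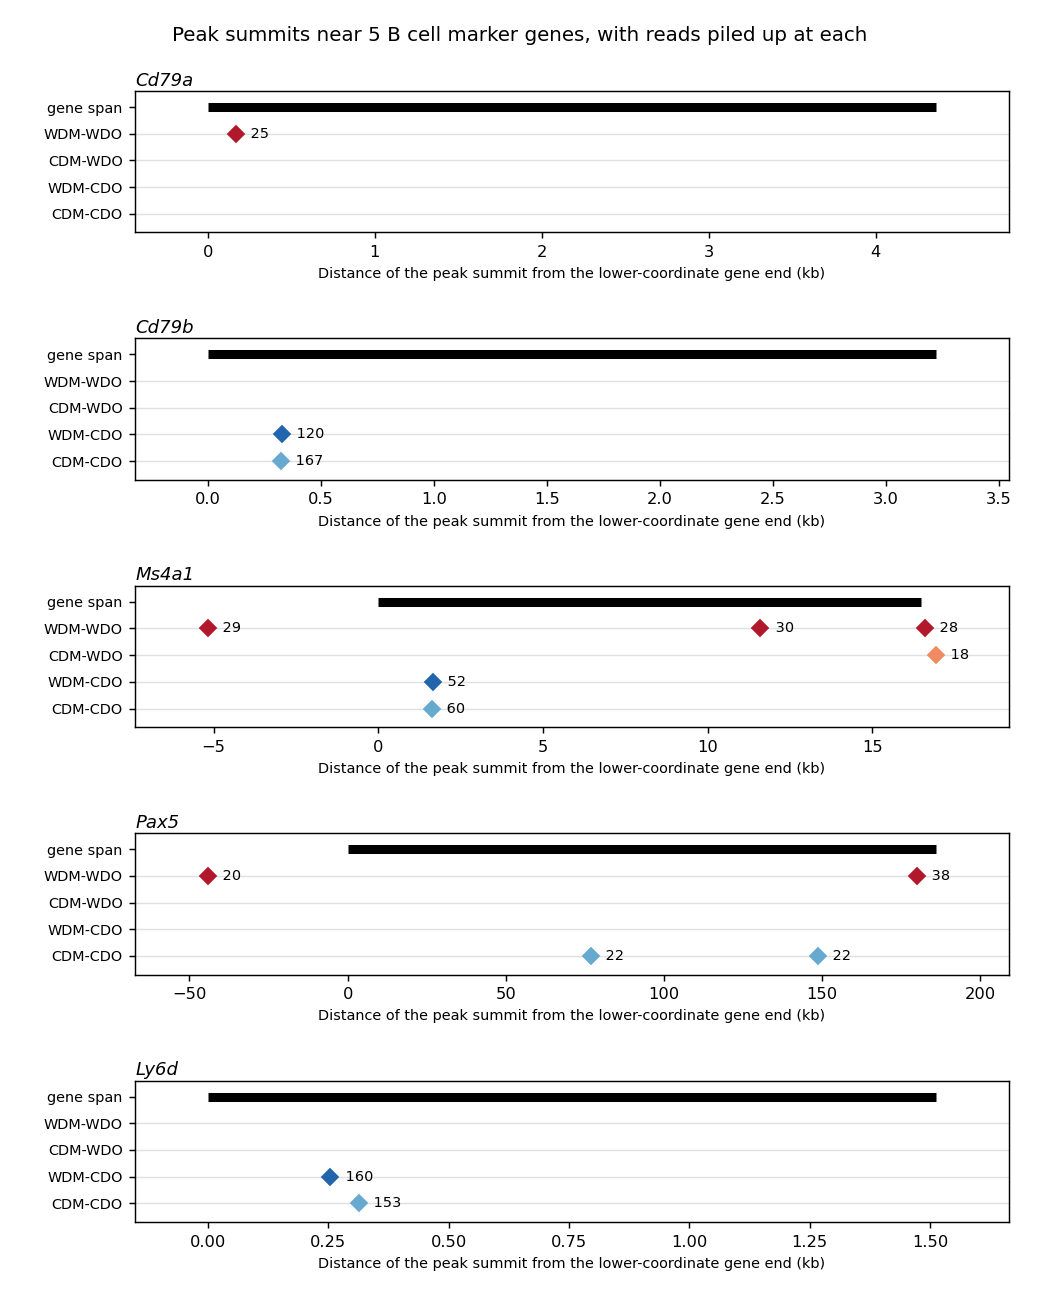
Peak summits (diamonds) near each gene by list, placed by their distance in kb from the lower-coordinate end of the gene span (black bar); the number beside each is the reads piled up at the summit. In Ms4a1 the WDO lists have summits at the upper end and the CDO lists near the lower end, and Cd79b and Ly6d have summits in the CDO lists only.

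Cd79b, with a span of 3.22 kb on chromosome 11 (106311341 to 106314562), had no peak in WDM-WDO or CDM-WDO. It had 1 peak in WDM-CDO (106311391 to 106311889), with 120 reads at the summit (95% exact Poisson interval 99.5 to 143), and 1 in CDM-CDO (106311384 to 106311905), with 167 reads (143 to 194). These intervals, here and below, cover counting error only. The fold enrichment over local background was 5.68 with a −log10 q of 48.0 in WDM-CDO, and 7.66 with a −log10 q of 85.3 in CDM-CDO. The peak ranked 3916 among 28319 peaks in WDM-CDO and 671 among 22178 in CDM-CDO. Both summits lay inside the gene, 327 bp and 321 bp above its lower-coordinate end and 2894 bp and 2900 bp below the upper one. No list had a peak within 1 kb of the upper end.

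Ly6d, the shortest of the genes at 1.51 kb (chromosome 15, 74762056 to 74763567), likewise had no peak in WDM-WDO or CDM-WDO. Its WDM-CDO peak (74762125 to 74762560) had 160 reads (136 to 187), a fold of 7.57 and a −log10 q of 81.5. Its CDM-CDO peak (74762123 to 74762582) had 153 reads (130 to 179), a fold of 8.52 and a −log10 q of 84.8. The 2 summits lay 254 bp and 313 bp above the lower-coordinate end, in the same part of the gene as in Cd79b. Because the gene is short, the CDM-CDO peak also reached the 1 kb window of the upper end.

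Ms4a1 (chromosome 19, 11249679 to 11266149) had peaks in all 4 lists, but at different ends. In WDM-WDO a peak of 28 reads (18.6 to 40.5) spanned the upper end (11266087 to 11266553), with its summit 118 bp beyond it. In CDM-WDO a peak of 18 reads (10.7 to 28.4) lay 160 bp above the span (11266309 to 11266659) and overlapped the WDM-WDO peak. Its −log10 q of 1.503 was close to the lowest of that list, 1.31. In WDM-CDO the peak had 52 reads (38.8 to 68.2) and lay inside the gene near its lower end (11250448 to 11251661), and in CDM-CDO the same region had 60 reads (45.8 to 77.2; 11250590 to 11251621). The summits of these CDO peaks were 1654 bp and 1618 bp above the lower end, and only the edges of the peaks came within 1 kb of it. The limit on reads of cDNA given above applies to these CDO peaks too. WDM-WDO had 2 further Ms4a1 peaks, one 4912 bp below the span with 29 reads and one inside it with 30 reads, 4867 bp below the upper end. Neither was in another list.

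The genes with a gene-end peak in all 4 lists at one end only, which was one end in both CDO lists and the other in both WDO lists, numbered 3 of 21631 (0.0139%), namely Ms4a1, Cdh23 and Zc3h12d. Cdh23 and Zc3h12d were named after their values were seen, and Zc3h12d has the ends the other way round. The pattern counted is that of Ms4a1 itself, a gene chosen by its peaks. The share is over all genes and not over those with a gene-end peak in every list. It describes the pattern and is no test of it.

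Cd79a (chromosome 7, 24897497 to 24901858) had 1 peak, in WDM-WDO. It crossed the lower-coordinate end (24897346 to 24897680), which the promoter table gives as the start, with 25 reads (16.2 to 36.9), a fold of 2.32 and a −log10 q of 2.27. The peak ranked 24293 of 26275, among the weakest of the list. CDM-WDO, WDM-CDO and CDM-CDO had no peak assigned to Cd79a. No list thus had peaks assigned to both Cd79a and its partner gene Cd79b. That rests on 1 weak Cd79a peak, which was lost at the stricter threshold and at equal list length given below. The share of gene pairs without a common list was not worked out.

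Pax5, which spans 186 kb on chromosome 4 (44524748 to 44710694), had no gene-end peak in any list. WDM-WDO had a peak of 38 reads (26.9 to 52.2) inside the gene, 6098 bp below the upper end where the minus-strand start lies, and another of 20 reads (12.2 to 30.9) that lay 43895 bp below the span. CDM-CDO had 2 peaks of 22 reads (13.8 to 33.3) well inside the gene, 109100 bp and 37422 bp below the upper end. CDM-WDO and WDM-CDO had none. The peak 43895 bp away was the farthest taken in, and no peak beyond 100 kb had a member as its nearest gene.

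**Figure D2:**
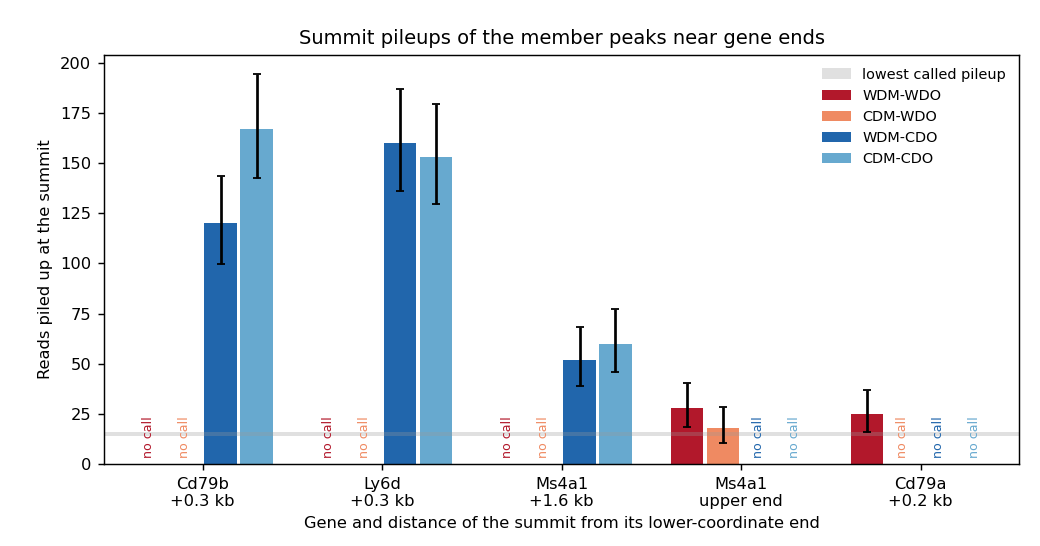
Reads piled up at the summit (vertical axis) of the peaks nearest the gene ends, by gene, place and list; error bars are 95% exact Poisson intervals and the grey band is the range of the lowest called pileup over the lists. No end peak of a WDO list exceeds 28 reads, while Cd79b and Ly6d reach 120 to 167 reads in the CDO lists.

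At gene ends, a peak within 1 kb was called for 2 of the 5 genes in WDM-WDO, 1 in CDM-WDO, 3 in WDM-CDO and 3 in CDM-CDO, against 47.6%, 40.2%, 51.2% and 48.1% of all protein-coding genes. The genes were Cd79a and Ms4a1 in WDM-WDO, Ms4a1 in CDM-WDO, and Cd79b, Ms4a1 and Ly6d in both CDO lists. The end that carried the peak was the lower one for Cd79a and the upper one for Ms4a1 in WDM-WDO, the upper one in CDM-WDO, and the lower one for all 3 genes in both CDO lists, with the window of the upper end of Ly6d also reached in CDM-CDO. The promoter table gives the strand of Cd79a and Pax5 only. As background not read from these files, mouse Cd79b, Ms4a1 and Ly6d are transcribed from the minus strand, which makes the lower-coordinate end the one where the transcript ends.

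Cd79b and Ly6d were among 531 genes (2.45% of all) with a gene-end peak in both CDO lists and in neither WDO list. By −log10 q among these 531, Ly6d ranked 3 and Cd79b 9 in WDM-CDO, and Cd79b ranked 2 and Ly6d 3 in CDM-CDO. The highest in both was the beta-actin gene Actb. The medians over the 531 were 7.90 and 5.87. The reverse pattern, both WDO lists and neither CDO list, was held by 41 genes (0.19%) and no member. Among the genes over 2 kb whose strand the promoter table gives, a peak at the far end and not at the start was found for 3.29% of those with a gene-end peak in WDM-WDO, 3.29% in CDM-WDO, 3.55% in WDM-CDO and 3.58% in CDM-CDO. Among the 381 such genes of the set of 531, it was 45 by their WDM-CDO peaks (11.8%) and 47 by their CDM-CDO peaks (12.3%). For the reverse pattern, it was 2 of 28 such genes by their WDM-WDO peaks (7.14%) and 7 of 28 by their CDM-WDO peaks (25%). This split by strand was added after the peaks were seen. It holds neither Cd79b nor Ly6d, whose strand the promoter table does not give.

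The first comparison of maternal diets, WDM-WDO against CDM-WDO, asked how the mothers' diet marked offspring on WD. Near the 5 genes 5 of 6 regions were in WDM-WDO alone, 1 was in both and 0 in CDM-WDO alone, against 42.2% and 20.3% of all 32616 regions in the first and second list alone. The regions in WDM-WDO alone were those of Cd79a, Pax5 and the 2 further ones of Ms4a1, and they were weak. To set such pileups against the other list, the reads above background were scaled by the median ratio at strong shared peaks, here 0.632. They were added to the local background of the list with the peak, brought to the other list by the genome backgrounds, since the files give no background where no peak was called. On this scale the region of Cd79a came to 18.6 reads in CDM-WDO, where a call over that background needed 22. The 2 further regions of Ms4a1 came to 20.4 and 21.7 reads, with 18 and 22 needed, and those of Pax5 to 14.3 and 27.1, with 15 and 23 needed. Of the 5, 2 thus came out above the level for a call and 3 below it. The counting error of their reads was not carried over, and the regions were taken because WDM-WDO called them. These values therefore cannot tell a missed call in CDM-WDO from a missing peak.

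In WDM-CDO against CDM-CDO, the comparison of maternal diets in offspring on CD, the 3 regions of Cd79b, Ly6d and Ms4a1 were in both lists. WDM-CDO had 0 member regions of its own and CDM-CDO 2, both of Pax5, against 34.3% and 15.9% of all 33525 regions. The strong peaks of WDM-CDO had a median 0.664 times the reads above background in CDM-CDO. Cd79b nonetheless had 120 reads in WDM-CDO and 167 in CDM-CDO. For Ms4a1 the reads were 52 in WDM-CDO and 60 in CDM-CDO. Ly6d went the other way before scaling, with 160 reads in WDM-CDO and 153 in CDM-CDO. Scaled to CDM-CDO by this ratio, the reads above background in WDM-CDO were 66.2 for Cd79b, 92.8 for Ly6d and 27.8 for Ms4a1, against 146, 136 and 49.1 in CDM-CDO. All 3 were thus higher in CDM-CDO on the scaled reads, with no replicate to give their spread. The 2 Pax5 peaks of CDM-CDO came to 30.0 and 29.2 reads in WDM-CDO, where 18 and 23 were needed.

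For the diet of the offspring, CDM-WDO against CDM-CDO had 1 member region in CDM-WDO alone, 5 in CDM-CDO alone and 0 in both, against 25.6%, 36.4% and 38.1% of all 29602 regions. WDM-WDO against WDM-CDO had 6 in WDM-WDO alone, 3 in WDM-CDO alone and 0 in both, against 26%, 31.8% and 42.3% of 38106. Scaled in the same way, Cd79b came to 98.03 reads in WDM-WDO and 134 in CDM-WDO, where a call needed 40 and 43. For Ly6d these values were 128 and 122 reads, with 40 and 36 needed. Ms4a1 near its lower end came to 42.9 and 49.5 reads, with 24 and 26 needed. The 2 Pax5 regions of CDM-CDO came to 19.0 and 19.98 reads in CDM-WDO, with 18 and 23 needed. The scaled reads of Cd79b, Ly6d and Ms4a1 were above the level for a call in both WDO lists, and those of Pax5 close to it or below.

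In the other direction, the 6 regions of WDM-WDO came to between 22.0 and 41.8 reads in WDM-CDO, with between 15 and 23 needed, and each lay above its own level. The Ms4a1 region of CDM-WDO came to 19.1 reads in CDM-CDO, with 16 needed. This scaling takes the loci to behave like strong peaks shared by the lists, which was not tested. The regions entered through a call in the list with the peak, and the counting error of their reads was not carried over. For regions of few reads, the scaled values therefore cannot tell a missed call from a missing peak.

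The antigen receptor loci of B cells, whose segments are not protein-coding genes in the table and so lay outside the member rule, were examined in the same lists. No peak there reached a −log10 q of 20 in the WDO lists. In WDM-CDO 1 of 21 peaks in Igh, 2 of 9 in Igk and 3 of 5 in Igl did, and in CDM-CDO 1 of 18, 3 of 11 and 3 of 3. The share of all peaks that reached 20 was not worked out. The median −log10 q over all peaks was 7.77 in WDM-WDO, 5.89 in CDM-WDO, 8.21 in WDM-CDO and 8.35 in CDM-CDO. The strongest peak anywhere in the Igh, Igk and Igl loci had a −log10 q of 7.40, 4.58 and 1.87 in WDM-WDO, and of 3.87, 6.11 and 3.72 in CDM-WDO. In the CDO lists the strongest peaks covered the constant region genes, where the limit on reads of cDNA given above applies. Over the kappa constant gene Igkc (chromosome 6) the peak had 865 reads and a −log10 q of 655 in WDM-CDO, where it ranked 5 of all peaks, and 998 reads and 779 in CDM-CDO, where it ranked 3. Over the heavy chain gene Ighm (chromosome 12) it had 367 reads and a −log10 q of 135 in WDM-CDO, and 405 reads and 152 in CDM-CDO. In the lambda locus (chromosome 16), Iglc1, Iglc2 and Iglc3 carried peaks of 81, 95 and 110 reads in WDM-CDO, and of 107, 125 and 99 in CDM-CDO. These copies are closely alike, so reads may be shared between them. Peaks that overlapped a gene segment numbered 7 of 15 in Igh, 0 of 8 in Igk and 0 of 1 in Igl in WDM-WDO, and 0 of 5, 0 of 12 and 0 of 1 in CDM-WDO. They numbered 13 of 21, 2 of 9 and 3 of 5 in WDM-CDO, and 12 of 18, 5 of 11 and 3 of 3 in CDM-CDO. These counts have no share over all peaks beside them, so they describe these loci only.

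**Figure D3:**
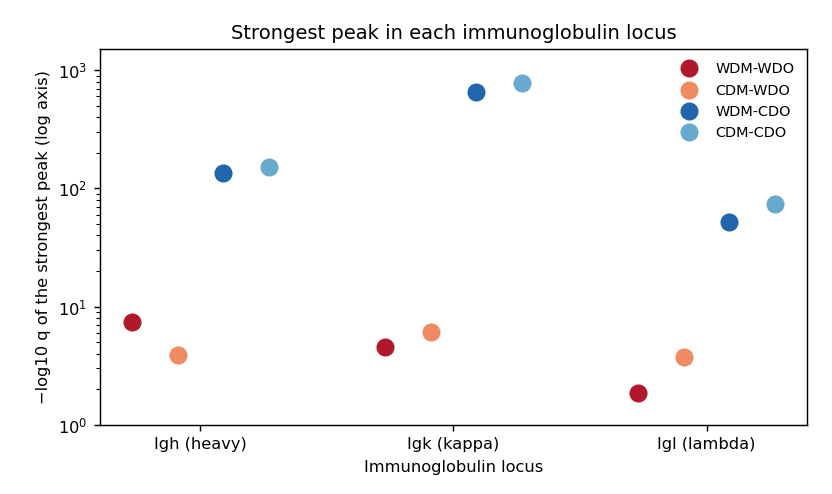
Highest −log10 q (vertical log axis) of any peak within the heavy, kappa and lambda immunoglobulin loci in each list, 1 point per list. In all 3 loci the WDO points lie below the CDO points, with 4.58 and 6.11 in the WDO lists and 655 and 779 in the CDO lists at kappa.

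Of 24 other B cell genes, a gene-end peak was called for 14 in WDM-WDO, 10 in CDM-WDO, 15 in WDM-CDO and 13 in CDM-CDO, against 47.6%, 40.2%, 51.2% and 48.1% of all genes. Of the 24, 8 had one in all 4 lists and 5 in none, patterns whose share over all genes was not worked out. Among the 11 that differed, 2 were in both CDO lists and neither WDO list, a pattern held by 2.45% of all genes. The kinase gene Blk had a −log10 q of 5.80 in WDM-CDO, against 5.72 in CDM-CDO. The transcription factor gene Spib had 5.48 in WDM-CDO, against 6.52 in CDM-CDO. Spib carried its peak at the lower end, the far end of a minus-strand gene. Spi1, the ETS factor gene of myeloid and B cells, had 12.6 in WDM-WDO, 4.38 in CDM-WDO and no gene-end peak in either CDO list. That reverse pattern was held by 0.19% of all genes.

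The kinase gene Btk had 3.21 in WDM-WDO, 16.5 in WDM-CDO and 9.45 in CDM-CDO. Like that of Spib, its peak lay at the lower end, the far end of a minus-strand gene, and did so in WDM-WDO as well. A gene-end peak was counted whichever gene lay nearest to it. The adaptor genes Blnk and Bank1 had 15.9 and 11.1 in WDM-WDO, Blnk had 5.91 in CDM-WDO, and they had 5.98 and 2.88 in WDM-CDO. The lymphoid factor gene Ikzf3 had 7.12 in WDM-CDO alone, Fcmr, which encodes a receptor for IgM, 6.28 in CDM-CDO alone, and the survival receptor gene Tnfrsf13c 4.50 in WDM-WDO and 3.04 in WDM-CDO. Cr2, which encodes a complement receptor, had 3.83 in WDM-WDO alone.

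**Figure D4:**
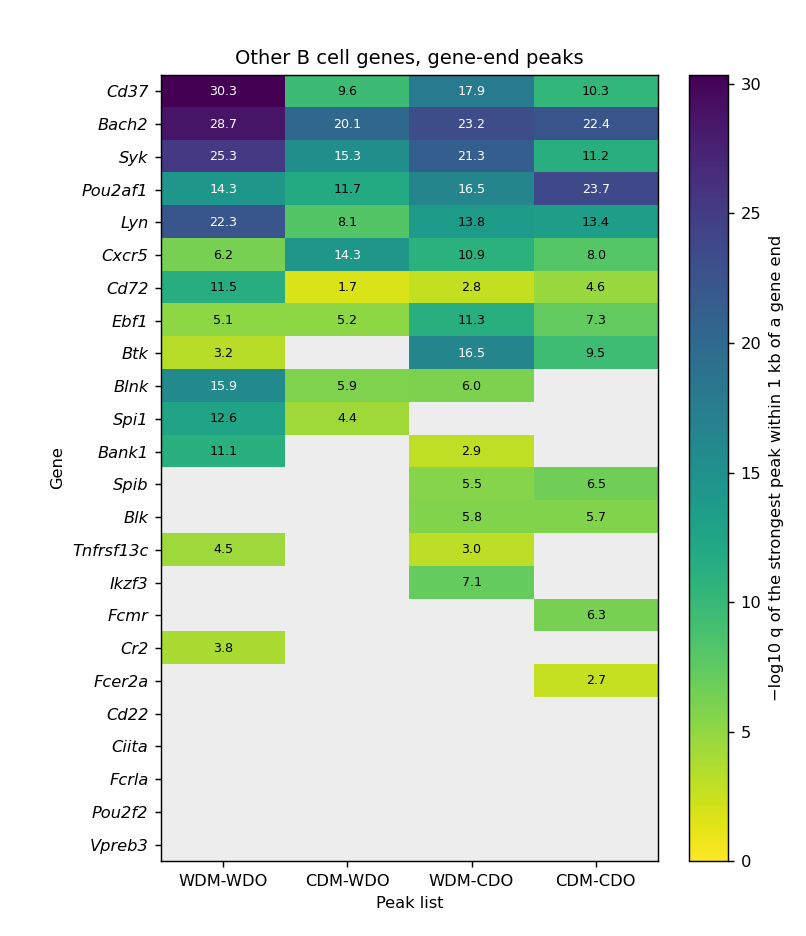
Strongest −log10 q within 1 kb of either gene end (colour and number) for 24 other B cell genes (rows) in each list (columns); grey cells have no gene-end peak. The upper 8 genes are called in all 4 lists, and Blk and Spib in both CDO lists only.

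Markers of other cells were counted in the same way, to be read against the 47.6%, 40.2%, 51.2% and 48.1% of all genes with a gene-end peak in the 4 lists. T cell markers had a gene-end peak at 6 of 10 in WDM-WDO, 1 in CDM-WDO, 8 in WDM-CDO and 7 in CDM-CDO. Macrophage and monocyte markers had one at 10, 2, 4 and 4 of 10, and neutrophil markers at 4, 1, 0 and 0 of 6. Endothelial markers had one at 3, 4, 5 and 3 of 10, and a peak assigned within 100 kb at 10, 10, 10 and 9 of 10. Cdh5, Pecam1, Tek, Fli1 and Sox17 of this list had no gene-end peak in any of the lists. Of 4 smooth muscle markers, 0, 0, 1 and 1 had a gene-end peak, and of 5 fibroblast markers 2, 1, 1 and 1. The part of these cells, of the cell sort and of the 08w and 12w tags in the B cell peaks was not tested.

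Likeness to a member was measured as the Euclidean distance between the log2 fold enrichments of the strongest gene-end peak over the 4 lists, with 0 where none was called. Nearest to Cd79b was Actb (distance 0.09), with a fold of 5.51 in WDM-CDO and 7.23 in CDM-CDO, followed by Tmem160 (0.25) and Msmb (0.27). Nearest to Ly6d were Tmem160 (0.32), Rc3h2 (0.33) and Msmb (0.37), and to Ms4a1 Mipep (0.18), Endog (0.21) and Lsmem1 (0.24). The nearest to Cd79a, each called in WDM-WDO alone, were Csf1r, Fkbp1b and Lilra5, at distances of at most 0.00097. With 4 lists and many zeros, such a distance describes a pattern of calls and little else.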

How the data were processed

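Per the file headers and labels, 4 ATAC-seq peak lists in narrowPeak format were deposited, 1 per diet group. Pooling of the 2 samples of a group ahead of peak calling is not stated in the sources used. The 4 H3K27ac samples were not analysed here. Tools in the submitters' processing notes are MACS2 2.2.9.1, Bowtie2 2.4.5, Trim Galore 0.6.10, deepTools 3.5.4, SAMtools 1.13 and FastQC 0.12.1, with the build GRCm38 (mm10) and no settings. A shift of read ends for the transposase is not stated either. Fold enrichment (a ratio), the −log10 q and the −log10 p, here a peak score, are the authors' values, taken as deposited within each list. Artefact-prone regions were not filtered.

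Analysis used Python 3.11.15, pandas 2.3.3, numpy 2.4.6 and SciPy 1.17.1. Reads at each summit were worked out from fold and −log10 p under the Poisson rule of MACS2. All peaks (100%) gave a whole number at a tolerance of 0.0001, and the step was tested on simulated data. Peaks were joined at an overlap of 1 bp or more. Chromosome Y was left out. Lists held 26275 (WDM-WDO), 18962 (CDM-WDO), 28319 (WDM-CDO) and 22178 (CDM-CDO) peaks, over genome backgrounds of 6.08, 5.49, 5.59 and 4.84 reads. Expected pileups were scaled by the median ratio above background at shared peaks among the strongest 25% of a list, and the reads needed for a call were those reaching the lowest −log10 p of the list over the local background brought over; this level was chosen after seeing the data. The gene table has no strand, which came from the promoter table for 17274 of 21631 genes.

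The members, gene lists and motifs were chosen with earlier results of these data known. A gene of the planned list of other B cell genes is not reported here. Named genes were all members, up to 10 of the other B cell genes called in some lists only, and the 3 most like each member. Alternatives were other gene-end windows, a −log10 q of at least 5, equal list lengths, assignment within 10 kb and an overlap of 50% of the shorter peak.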

Additional observations from a re-analysis of the deposited data

Results flagged for a closer look

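The number of peaks assigned to the 5 genes differed between maternal diets in opposite directions under the 2 offspring diets. WDM-WDO had 6 and CDM-WDO 1, a difference of 5, whereas WDM-CDO had 3 and CDM-CDO 5, a difference of -2. These were 0.0228% and 0.00527% of all peaks in the WDO lists, and 0.0106% and 0.0225% in the CDO lists. The difference between these differences was not tested, since each group has 1 list. Both rest on weak peaks: with a −log10 q of at least 5, WDM-WDO kept 2 and CDM-WDO 0, and WDM-CDO and CDM-CDO had 3 each.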

How the results depend on the processing

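Of 60 recomputed counts, 47 stayed within 1.5 times the reported one, including all 16 of the other B cell genes. The peaks of Cd79b, Ly6d and Ms4a1 in both CDO lists were kept at the stricter threshold and at equal list length. With a −log10 q of at least 5, members with a gene-end peak fell to 0 in WDM-WDO and 0 in CDM-WDO; assigned peaks were 2 in WDM-WDO, 0 in CDM-WDO and 3 in CDM-CDO; regions in 1 list only were 2 for WDM-WDO against CDM-WDO, 0 for WDM-CDO against CDM-CDO, 3 for CDM-WDO against CDM-CDO and 5 for WDM-WDO against WDM-CDO. At equal list length (18962 peaks), WDM-WDO had 0 members with a gene-end peak and 3 assigned peaks, and WDM-CDO against CDM-CDO had 1 region in 1 list only. A 2 kb window gave 2 members in CDM-WDO and 4 in WDM-CDO, since it reached a peak of the gene next to Cd79a. With a 500 bp window the Ms4a1 peaks of the CDO lists were no longer gene-end peaks. The upper-end Ms4a1 peaks of the WDO lists had a −log10 q of 3.06 in WDM-WDO and 1.503 in CDM-WDO. The stricter threshold removed both, and equal list length removed that of WDM-WDO. The switch of ends in Ms4a1 thus depends on the window, the threshold and the list length. No paired analysis was possible because each group has a single peak list that carries no replicate. Leaving out a replicate could not be done for the same reason.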
